A study of Rattus norvegicus with 32 samples.

Results

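The report concerns 10 genes that encode force-sensing channels and parts of the YAP pathway, among the 32623 genes counted in rat liver sinusoidal endothelial cells (LSECs). The genes were matched by symbol, each of the 10 symbols to 1 gene, and were chosen with earlier results of these data known. They are the channels Piezo1, Piezo2 and Trpv4, the polycystins Pkd1 and Pkd2, the co-activators Yap1 and Wwtr1 (the gene of TAZ), the regulators Lats2 and Amotl2, and the target gene Ankrd1.

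RNA sequencing was done on LSECs from male rats that inhaled carbon tetrachloride (CCl4), a hepatotoxin whose repeated use scars the liver. CCl4 was given for 2 weeks (acute injury, n = 5), 6 weeks (fibrosis, n = 5) or 12 to 14 weeks (cirrhosis, n = 6), and LSECs of 6 healthy rats served as reference. Rats of the CCl4 model drank water with phenobarbital, which induces the enzymes that activate CCl4, and LSECs were isolated on a density gradient several days after the last dose. In a second experiment with thioacetamide (TAA), another hepatotoxin, which was injected intraperitoneally against saline, the labels name 5 libraries control and 5 libraries TAA control, and these names do not settle which group received TAA. The labels give Wistar Han for all 32 libraries, whereas the series' design gives Sprague-Dawley for the TAA experiment. No batch is named in the labels, so stage and day of preparation cannot be told apart. The paper gives the same range of body weight for all rats exposed to CCl4. Length of exposure and age of the rats therefore cannot be told apart either. Its methods do not say whether the healthy rats drank phenobarbital.

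PIEZO1 and PIEZO2 are cation channels opened directly by membrane tension, and TRPV4 is a calcium channel that responds to flow, swelling and warmth. Polycystin-1 and polycystin-2, products of Pkd1 and Pkd2, form a receptor-channel complex best known from primary cilia. YAP and TAZ bind TEAD factors in the nucleus and switch on genes such as Ankrd1 when cells are stretched or lie on a stiff matrix. The kinase LATS2 phosphorylates both co-activators and keeps them out of the nucleus, and AMOTL2 holds them at cell junctions. Amotl2 and Lats2 are themselves transcribed in response to YAP. LSECs line the sinusoids, where they face blood flow and a matrix that stiffens as the liver scars. Transcript levels do not report where the YAP and TAZ proteins lie in the cell.

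TEAD factors recognise the letters CATTCC, read on the other strand as GGAATG. Of the 10 genes, 7 had an entry among RefSeq promoters of the GRCr8 rat assembly, and Piezo1, Ankrd1 and Lats2 had none. In the 250 bases before the transcription start, the 6 letters occurred on either strand in 3 of the 7, against 12.1% of all 33469 promoters. These 3 promoters are shown because a gene of the pathway and a gene that holds YAP at junctions are among them, with the matching letters in capitals, in the direction of the gene. A match in letters is a description of the window and not a binding site.
Amotl2, chr8:112182376-112182625, plus strand, match 76 bases before the start: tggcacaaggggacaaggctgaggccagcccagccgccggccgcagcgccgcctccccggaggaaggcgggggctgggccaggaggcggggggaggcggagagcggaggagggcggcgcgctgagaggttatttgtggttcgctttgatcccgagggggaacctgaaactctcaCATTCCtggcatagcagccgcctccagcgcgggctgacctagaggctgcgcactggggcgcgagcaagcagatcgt
Yap1, chr8:13451438-13451687, minus strand, match 116 bases before the start: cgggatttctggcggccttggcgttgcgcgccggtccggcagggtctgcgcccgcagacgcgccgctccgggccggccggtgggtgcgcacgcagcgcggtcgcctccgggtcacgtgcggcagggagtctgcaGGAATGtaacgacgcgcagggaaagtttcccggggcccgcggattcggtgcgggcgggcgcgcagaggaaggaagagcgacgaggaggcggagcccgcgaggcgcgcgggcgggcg
Pkd2, chr14:5585141-5585390, minus strand, match 223 bases before the start: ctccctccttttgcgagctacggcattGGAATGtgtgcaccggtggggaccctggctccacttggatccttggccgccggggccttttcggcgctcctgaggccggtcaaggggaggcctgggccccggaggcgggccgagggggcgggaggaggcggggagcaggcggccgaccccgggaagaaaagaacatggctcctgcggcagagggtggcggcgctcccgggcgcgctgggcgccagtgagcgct

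Totals ranged from 28205908 to 46464289 expected counts in the 22 CCl4 libraries. Levels are given as CPM, read counts scaled to a common library size, after TMM correction for composition, and are compared within a gene only. A gene was called higher or lower when its Benjamini-Hochberg adjusted p from limma-voom over all genes tested was under 0.05 and its fold-change was above 1.5. Healthy libraries stood apart in composition. Their summed level of 10 hepatocyte markers ranged from 1374 to 29454 CPM, with 15262 CPM or more in replicates 1, 2, 4 and 6 and with 3801 and 1374 CPM in replicates 3 and 5. It was 150 to 946 CPM in acute injury, 1399 to 5526 CPM in fibrosis and 3196 to 15137 CPM in cirrhosis. Healthy replicates 3 and 5 were also low in macrophage and Kupffer cell markers, with 374 and 463 CPM. The other healthy libraries had 1636 to 4063 CPM of these markers. Their sum was 84.8 to 249 CPM in acute injury, 37.3 to 234 CPM in fibrosis and 911 to 3232 CPM in cirrhosis. Lymphocyte markers summed to 21.4 to 406 CPM in healthy and 0.99 to 6.09 CPM in acute libraries. LSEC markers were present in all groups, although 11 of them summed to 3803 to 4412 CPM in acute injury and 2654 to 3735 CPM in fibrosis, against 15186 to 30682 CPM in healthy and 15469 to 19590 CPM in cirrhotic LSECs. Stab2, a scavenger receptor of LSECs, was at 99.6 to 273 CPM in acute injury and 1470 to 5056 CPM in healthy rats. Cdh5, which encodes VE-cadherin of all endothelium, lay at 1324 to 2154 CPM in acute injury and 775 to 1763 CPM in healthy rats. Of 11 stellate cell and fibroblast markers the sum was 1320 to 2137 CPM in acute injury and 1364 to 1845 CPM in fibrosis, of which Reln made up 1306 to 2124 and 1174 to 1570 CPM. The sums hide a rise between these stages. Of the 10 stellate markers tested, 7 were higher and 0 lower in fibrosis than in acute injury, where 11% of all genes were called. Their median log2 fold-change was 2.99. The part of these shifts in the changes described here was not tested. In bulk samples of this kind, fewer cells of a type and less RNA per cell cannot be told apart.

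Of the 10 genes, 6 were called between acute and healthy LSECs, where 73.4% of the 14317 genes tested were called. Pkd2, Wwtr1 and Ankrd1 were higher and Trpv4, Pkd1 and Amotl2 lower, against 35.5% and 37.9% of all genes. Between fibrosis and healthy LSECs 7 of the 10 were called, against 70.2% of 14538 genes. Those 7 were Piezo2, Pkd2, Wwtr1 and Ankrd1, which were higher (35.3% of all genes), and Trpv4, Pkd1 and Amotl2, which were lower (34.9%). In cirrhosis 6 of the 10 were called, with Piezo2, Trpv4 and Wwtr1 higher and Piezo1, Pkd1 and Amotl2 lower. There, 51.8% of 14789 genes were called, 27.1% higher and 24.7% lower. The shares of the 10 genes thus lay near those of all genes, and the count of calls is no result about the pathway. The median log2 fold-change of the 10 genes was 0.27, 0.18 and 0.37 in acute injury, fibrosis and cirrhosis, and that of all genes tested was -0.09, -0.03 and 0.07. The 3 comparisons share the 6 healthy libraries.

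**Figure D1:**
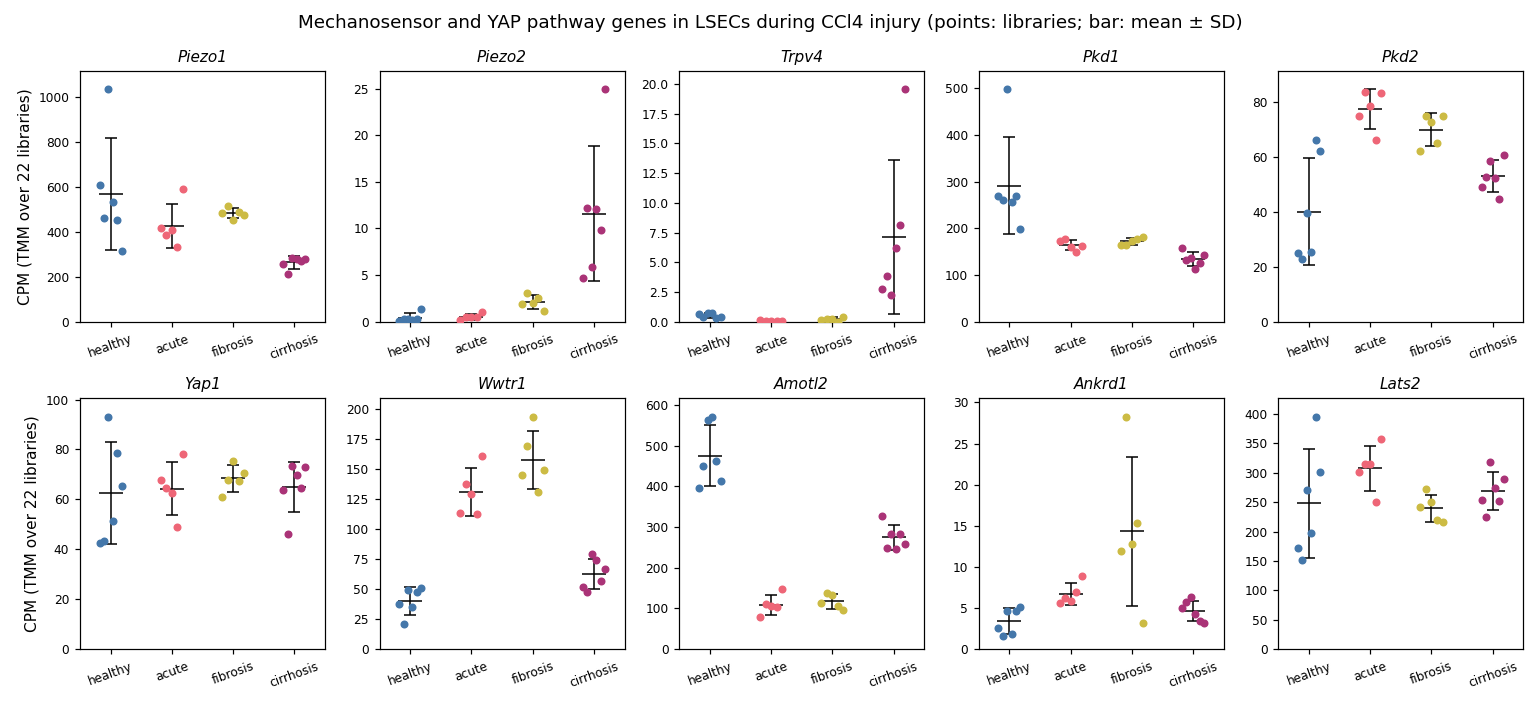
Level of each of the 10 genes in CPM (linear axis from 0) in every library of the CCl4 experiment, with 6 healthy, 5 acute, 5 fibrosis and 6 cirrhosis libraries as points and mean ± SD as bars. Piezo2 and Trpv4 are high in cirrhosis, Wwtr1 is highest in acute injury and fibrosis, where Amotl2 is lowest, and Yap1 has group means between 62.4 and 68.4 CPM.

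Piezo1 was lower in cirrhosis than at any other stage. Healthy libraries had 317 CPM at the lowest, 497 CPM at the median and 1036 CPM at the highest, which was replicate 3. The 5 acute libraries had 419, 386, 410, 332 and 592 CPM, and the 5 fibrosis libraries 484, 515, 452, 491 and 478 CPM. Cirrhotic libraries ran from 213 CPM through a median of 275 CPM to 283 CPM, and no cirrhotic library reached the level of a library of another stage. The log2 fold-change from healthy to cirrhotic LSECs was -1.01 (SE 0.24, adjusted p = 0.0032). Acute and fibrotic LSECs overlapped with healthy ones (-0.31 on the log2 scale with adjusted p = 0.299, then -0.07 with adjusted p = 0.801), and with library size alone as scaling these values were 0.11 and 0.33 and were not called. Cirrhosis was also below fibrosis by a log2 fold-change of -0.88 (adjusted p = 1.15e-06) and below acute injury by -0.67 (adjusted p = 0.000441). The order of means was healthy, fibrosis, acute and cirrhosis, and only the last step was called. That step fell under the fold threshold without acute replicate 8 (log2 fold-change -0.56), with upper-quartile scaling (-0.49) and with replicate number as a block (-0.57).

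Piezo2 rose from acute injury to fibrosis and from fibrosis to cirrhosis, starting from few counts. It had 3 to 52 counts in healthy libraries, with a lowest level of 0.1 CPM, a median of 0.307 CPM and a highest of 1.34 CPM. Acute libraries had 0.191, 0.463, 0.528, 0.461 and 1.01 CPM, all within the healthy range. Fibrosis libraries had 1.95, 3.09, 2.00, 2.53 and 1.14 CPM, so that 1 of the 5 lay below the highest healthy library. In cirrhosis the lowest library had 4.64 CPM, the median was 10.9 CPM and the highest, replicate 6, had 24.9 CPM, all above every other library. The log2 fold-change against healthy LSECs was 2.70 in fibrosis (SE 0.51, adjusted p = 0.000442) and 4.93 in cirrhosis (SE 0.66, adjusted p = 0.000144), and 0.57 in acute injury, which was not called (adjusted p = 0.4). Fibrosis exceeded acute injury by 2.19 (adjusted p = 0.00746) and cirrhosis exceeded fibrosis by 2.30 (adjusted p = 0.00199) on the log2 scale. The first of these 2 steps was lost when all 4 groups were fitted together (adjusted p = 0.061). Against healthy LSECs, Piezo2 passed the low-count filter of the fibrosis and cirrhosis comparisons only through the injured libraries. Those 2 adjusted p are therefore no firm measure of the rise.

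Trpv4 was lower than in healthy LSECs in acute injury, on few counts, and higher in cirrhosis. Healthy libraries held 8 to 19 counts (0.286 CPM at the lowest, 0.506 CPM at the median, 0.737 CPM at the highest). The 5 acute libraries held 5, 3, 3, 3 and 3 counts, and the 5 fibrosis libraries 4, 8, 6, 0 and 15 counts. In cirrhosis the counts ran from 88 to 789, with a lowest level of 2.24 CPM, a median of 5.04 CPM and a highest of 19.5 CPM, again in replicate 6. All cirrhotic libraries lay above every other library of the CCl4 experiment, and all acute libraries lay below every healthy one. The log2 fold-change against healthy LSECs was -2.22 in acute injury (SE 0.40, adjusted p = 0.000264) and 3.46 in cirrhosis (SE 0.65, adjusted p = 0.000846). Trpv4 passed the low-count filter of the acute comparison only through its healthy libraries, so that adjusted p is no firm measure of the fall. In the comparison of cirrhosis with healthy LSECs it passed through its cirrhotic libraries, and that adjusted p has the same limit. With 1 library left out at a time, Trpv4 could be tested in 6 of the 11 acute fits. With the counts of each group summed, the level in healthy LSECs was 5.43 times that in acute injury, with a 95% interval of 3.21 to 9.74 that covers counting error only. Cirrhosis exceeded healthy LSECs 14.1-fold by the same sums (95% interval 11.3 to 17.6, counting error only). Cirrhosis replicate 6 held 789 of the 1833 cirrhotic counts. The 95% interval of the fit, which covers the spread between libraries, was wider, at 2.06 to 4.85 on the log2 scale. The fall in fibrosis was called (log2 fold-change -1.80, SE 0.72, adjusted p = 0.037), but rested on few counts and was lost with edgeR (adjusted p = 0.0726), with DESeq2 (adjusted p = 0.067), in 1 fit over the 4 CCl4 groups (adjusted p = 0.0769) and without fibrosis replicate 16, the library at 0 (-0.97, adjusted p = 0.0808). It was also lost without fibrosis replicate 12 (adjusted p = 0.0694) and without healthy replicate 1, 3 or 4 (adjusted p = 0.0625, 0.0643 and 0.0636).

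Some markers of other cells were also higher in cirrhosis than in healthy LSECs. Of 11 stellate cell and fibroblast genes tested, 9 were higher and 0 lower in cirrhosis than in healthy LSECs, where 27.1% of all genes were higher. Their summed level was 287 to 789 CPM in healthy and 635 to 1949 CPM in cirrhotic libraries, and none of the 11 was at 0 in all cirrhotic libraries. Of 9 genes of lymphatic and vascular endothelium, 4 were higher and 0 lower, with sums of 1717 to 4276 CPM in healthy and 2528 to 6131 CPM in cirrhotic libraries. Ccl21, a chemokine of lymphatic endothelium, rose from 1.24 to 7.56 CPM in healthy to 505 to 2144 CPM in cirrhotic LSECs. Prox1, a transcription factor counted in the same list, was at 6.39 to 19.4 CPM in healthy and 17.3 to 24.5 CPM in cirrhotic libraries. Of 6 cholangiocyte markers tested, 3 were higher and 0 lower in cirrhosis, and the 7 counted summed to 2.09 to 30.4 CPM in healthy and 7.66 to 15.7 CPM in cirrhotic libraries. Cirrhosis replicate 6, with the most Piezo2 and Trpv4, had sums of 1704 CPM and 5874 CPM for the stellate and the lymphatic and vascular list. The highest sums, 1949 and 6131 CPM, were in replicate 2, which had 12.2 CPM of Piezo2 and 3.85 CPM of Trpv4. Cirrhosis replicate 5, with the lowest stellate sum of 635 CPM, had 9.80 CPM of Piezo2 and 8.16 CPM of Trpv4. The part of these cells in the levels of Piezo2 and Trpv4 was not tested.

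Pkd1 was lower than in healthy LSECs at all 3 stages, and Pkd2 was higher at the first 2. Pkd1 had 197 CPM at the lowest, 264 CPM at the median and 497 CPM at the highest in healthy rats, the highest being replicate 3. Acute libraries had 172, 177, 160, 148 and 163 CPM, fibrosis libraries 164, 165, 174, 177 and 182 CPM, and cirrhotic libraries 114 to 157 CPM with a median of 134 CPM. No injured library reached the lowest healthy one. The log2 fold-changes were -0.74 (adjusted p = 0.00395), -0.63 (adjusted p = 0.00961) and -1.05 (SE 0.20, adjusted p = 0.000827) in acute injury, fibrosis and cirrhosis. Without healthy replicate 3 the first 2 were -0.52 and -0.48 and fell under the fold threshold, and with library size alone as scaling they were -0.33 and -0.23 (adjusted p = 0.0918 and 0.198). Among the injured groups the step from acute injury to cirrhosis was -0.28 (adjusted p = 0.0104) and that from fibrosis to cirrhosis -0.36 (adjusted p = 0.00147), both smaller than the fold threshold.

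Healthy libraries were spread widely in Pkd2, from 22.8 CPM through a median of 32.4 CPM to 66.1 CPM, with replicates 5 and 6 at 66.1 and 62.3 CPM. Acute libraries had 74.8, 83.9, 78.8, 66.3 and 83.4 CPM, all above the healthy ones, and fibrosis libraries had 62.1, 75.1, 72.9, 65.1 and 74.9 CPM. Cirrhotic libraries lay between 44.8 and 60.8 CPM, inside the healthy range. Pkd2 rose by a log2 fold-change of 1.11 in acute injury (SE 0.28, adjusted p = 0.00299) and 0.998 in fibrosis (SE 0.28, adjusted p = 0.0063). The difference in cirrhosis was 0.54 with a 95% interval of -0.01 to 1.09 (adjusted p = 0.0832), and it passed without healthy replicate 5 (0.70, adjusted p = 0.0197) or 6 (0.69, adjusted p = 0.0234). It also passed with upper-quartile scaling (0.68, adjusted p = 0.0368) and with library size alone (0.89, adjusted p = 0.0144). Against the 2 healthy libraries that were low in hepatocyte markers, the rise in fibrosis was 0.52 (adjusted p = 0.0557).

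**Figure D2:**
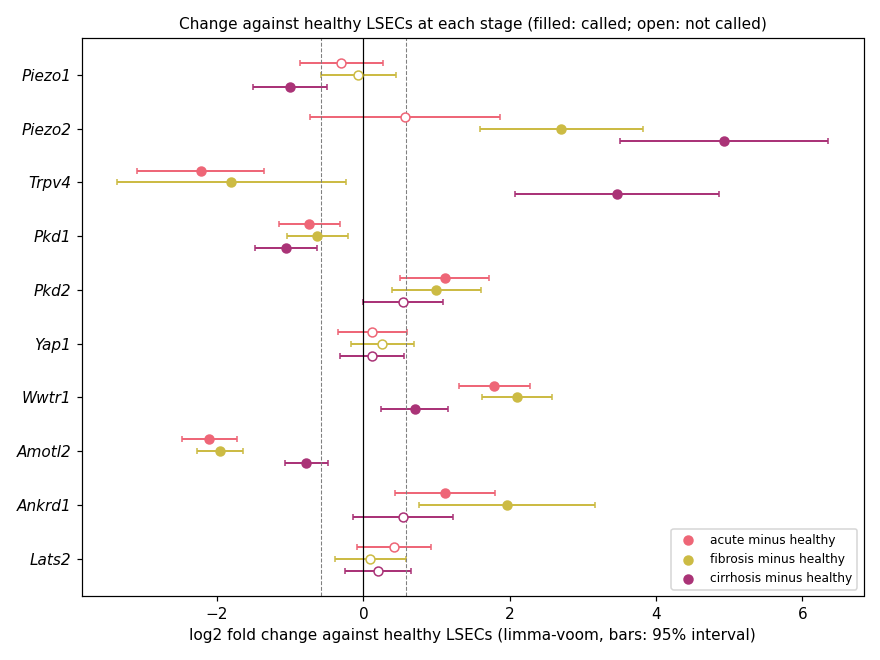
Log2 fold-change against healthy LSECs of the 10 genes in acute injury, fibrosis and cirrhosis, with 95% intervals as horizontal bars. Filled points were called, open points were not, and dashed lines mark the 1.5-fold threshold. Trpv4 lies on opposite sides of 0 in acute injury (-2.22) and cirrhosis (3.46), and all intervals of Yap1 and Lats2 include 0.

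Yap1 was called in none of the 7 comparisons. Healthy libraries ran from 42.7 CPM through a median of 58.4 CPM to 93.2 CPM, a range that held every acute library (67.6, 64.5, 62.3, 48.8 and 78.3 CPM). The fibrosis libraries (60.7, 67.6, 75.3, 67.5 and 70.7 CPM) and the cirrhotic libraries (46.3 to 73.2 CPM, median 67.2 CPM) also lay inside it. The 95% intervals of the log2 fold-change against healthy LSECs were -0.34 to 0.59 in acute injury, -0.17 to 0.69 in fibrosis and -0.32 to 0.55 in cirrhosis, so that a 1.5-fold rise lay inside the first 2 intervals and just outside the third. Against the 2 healthy libraries low in hepatocyte markers the log2 fold-changes had the opposite sign (-0.26, -0.25 and -0.40) and were not called. With library size alone as scaling the difference in fibrosis was 0.65 and was called (adjusted p = 0.009).

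Wwtr1, whose product TAZ shares partners and targets with YAP, was higher at all 3 stages. Healthy libraries had 20.4 CPM at the lowest, 42.1 CPM at the median and 50.8 CPM at the highest. The acute libraries had 113, 137, 129, 112 and 160 CPM and the fibrosis libraries 145, 168, 193, 130 and 149 CPM, all more than the highest healthy library. Cirrhotic libraries ran from 47.7 CPM to 78.7 CPM with a median of 61.8 CPM, and overlapped with the healthy group only at this lower end. The log2 fold-change against healthy LSECs was 1.79 in acute injury (SE 0.22, adjusted p = 1.44e-05), 2.09 in fibrosis (SE 0.22, adjusted p = 3.95e-06) and 0.70 in cirrhosis (SE 0.21, adjusted p = 0.0141). Cirrhosis was below fibrosis by a log2 fold-change of -1.34 (adjusted p = 3.98e-06) and below acute injury by -1.06 (adjusted p = 1.67e-05). The rise in cirrhosis was the least certain, with 0.52 and below the fold threshold without healthy replicate 2, and 0.38 (adjusted p = 0.161) against the 2 healthy libraries low in hepatocyte markers. Against those 2 libraries the rises in acute injury and fibrosis were called, with 1.77 in fibrosis.

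The ratio of Wwtr1 to Yap1 counts within a library needs no scaling between libraries. It was 0.473 to 0.870 in healthy LSECs (median 0.640), 1.67 to 2.29 in acute injury (median 2.07) and 1.93 to 2.57 in fibrosis (median 2.38). In cirrhosis it was 0.811 to 1.07 (median 0.973). The cirrhotic median lay between those of healthy and early injured LSECs, and cirrhosis replicate 1, at 0.811, lay below healthy replicate 1, at 0.870. These shifts are changes in the balance of the 2 transcripts and do not say which of them changed. The ratios were chosen after the values were seen and carry no test. The ratio of Piezo2 to Piezo1 ran from 0.000160 to 0.00423 in healthy and from 0.0179 to 0.0885 in cirrhotic LSECs, without overlap.

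**Figure D3:**
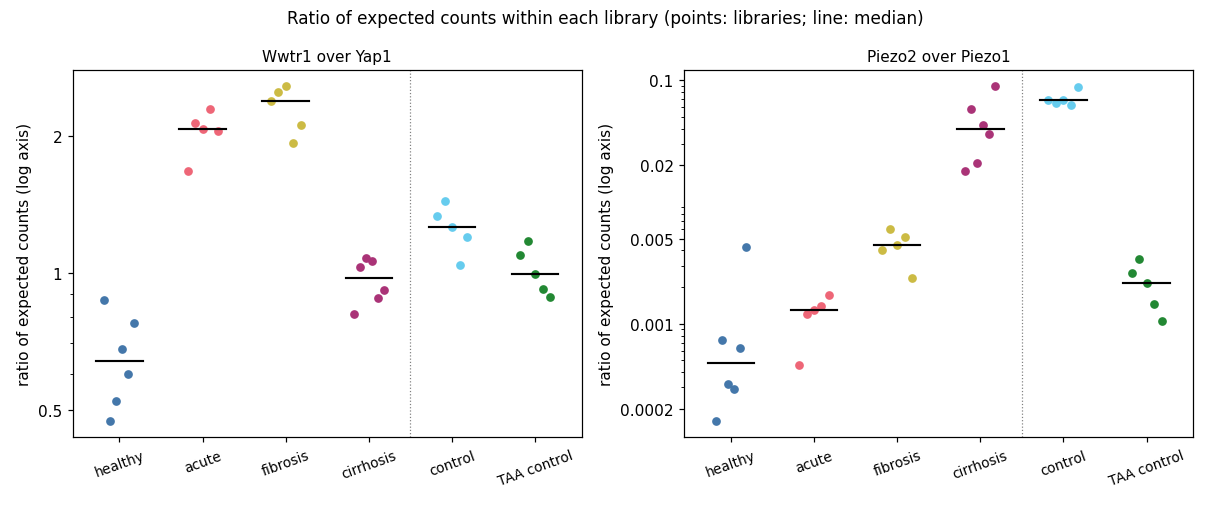
Ratio of expected counts within each library for Wwtr1 over Yap1 (left) and Piezo2 over Piezo1 (right), on log axes, with libraries as points and group medians as lines. The dotted line parts the CCl4 experiment from the TAA experiment. The Wwtr1 to Yap1 ratio has medians of 0.640, 2.07, 2.38 and 0.973 in healthy, acute, fibrosis and cirrhosis libraries.

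Lats2, the kinase that inactivates YAP and TAZ, was called in none of the 7 comparisons. It ranged from 152 to 396 CPM in healthy libraries (median 234 CPM), and the acute libraries (301, 315, 315, 250 and 357 CPM), the fibrosis libraries (242, 272, 250, 219.5 and 216 CPM) and the cirrhotic libraries (225 to 318 CPM) all lay within that range. The log2 fold-changes against healthy LSECs were 0.42 (95% interval -0.08 to 0.92), 0.09 (-0.39 to 0.58) and 0.20 (-0.25 to 0.65) in acute injury, fibrosis and cirrhosis. With library size alone as scaling the first was 0.83 and was called (adjusted p = 0.00608).

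Amotl2, whose product binds YAP at junctions, fell at all 3 stages and was lower in acute injury and fibrosis than in cirrhosis. Healthy libraries had between 396 and 572 CPM with a median of 456 CPM. Acute libraries had 78.0, 112, 105, 104 and 147 CPM, fibrosis libraries 112, 137, 134, 105 and 96.2 CPM, and cirrhotic libraries 245 to 327 CPM with a median of 271 CPM. Healthy, cirrhotic and early injured libraries formed 3 ranges that did not overlap. The log2 fold-change against healthy LSECs was -2.11 in acute injury (SE 0.17, adjusted p = 4.1e-07), -1.96 in fibrosis (SE 0.14, adjusted p = 1.89e-07) and -0.78 in cirrhosis (SE 0.14, adjusted p = 0.00062). Cirrhosis exceeded fibrosis by 1.24 (adjusted p = 7.32e-07) and acute injury by 1.35 (adjusted p = 2.04e-06) on the log2 scale. Fibrosis and acute injury differed by 0.19 (95% interval -0.15 to 0.54). With library size alone as scaling the fall in cirrhosis was -0.43 and under the fold threshold.

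Ankrd1, a target gene of YAP and TAZ, was higher in acute injury and fibrosis. Healthy libraries had 1.54 to 5.09 CPM (median 3.60 CPM) and acute libraries 5.55, 6.21, 5.89, 6.98 and 8.91 CPM, above all healthy ones. Fibrosis libraries were uneven, with 12.0, 28.3, 12.8, 15.4 and 3.21 CPM, the last being replicate 17. Cirrhotic libraries had 3.20 to 6.27 CPM (median 4.64 CPM) and overlapped with healthy ones. The log2 fold-change against healthy LSECs was 1.12 in acute injury (SE 0.32, adjusted p = 0.00603), 1.96 in fibrosis (SE 0.55, adjusted p = 0.00638) and 0.54 in cirrhosis (SE 0.31, adjusted p = 0.155). With library size alone as scaling the difference in cirrhosis was 0.89 and was called (adjusted p = 0.0295). Fibrosis exceeded acute injury by 0.89, which did not pass (adjusted p = 0.23), but passed without fibrosis replicate 17 (1.36, adjusted p = 0.012) and with DESeq2 (1.17, adjusted p = 0.023). Cirrhosis was below fibrosis by a log2 fold-change of -1.36 (adjusted p = 0.0221). Ankrd1, Wwtr1 and Pkd2 were thus higher in the same early stages in which Amotl2 was lower, although Ankrd1 and Amotl2 are both YAP target genes. Against the 2 healthy libraries low in hepatocyte markers, Ankrd1 had a log2 fold-change of 0.68 in acute injury, which was called, and the 1.39 in fibrosis did not pass (adjusted p = 0.201).

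Among the injured stages themselves, acute injury and fibrosis were close. Of the 9 genes tested between fibrosis and acute LSECs only Piezo2 was called, where 11% of 13931 genes were, and Trpv4 had too few counts to be tested. Between cirrhosis and fibrosis 6 of the 10 were called (63.8% of 15186 genes), with Piezo2, Trpv4 and Amotl2 higher and Piezo1, Wwtr1 and Ankrd1 lower in cirrhosis. Between cirrhosis and acute injury 5 were called (69.3% of 15005 genes), the same genes without Ankrd1, whose log2 fold-change was -0.55 (adjusted p = 0.0264) and under the fold threshold. Ankrd1 passed that threshold without cirrhosis replicate 2 or 3, without acute replicate 1 or 3 (-0.62, -0.62, -0.62 and -0.59) and with library size alone (-0.65). Pkd2 passed it without acute replicate 4 (-0.60) and with library size alone (-0.64). Trpv4 had log2 fold-changes of 5.31 and 5.70 in these 2 comparisons (adjusted p = 0.00203 and 0.000164), and by summed counts cirrhosis exceeded fibrosis 35.4-fold (95% interval 25.1 to 51.6, counting error only). Trpv4 passed the low-count filter of both comparisons only through its cirrhotic libraries, so these 2 adjusted p are no firm measure of the difference.

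In the TAA experiment 4 of the 10 genes were called between the 2 groups (27.6% of 14376 genes). Wwtr1, Piezo2 and Trpv4 were lower in the group labelled TAA control (14.9% of all genes were), and Ankrd1 was higher (12.7% of all genes were). CPM in these 10 libraries were scaled on their own and are not comparable with those of the CCl4 libraries. No direction with regard to disease is given, because the labels do not say which group received TAA.

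Piezo2 had 17.95, 17.99, 22.7, 22.2 and 25.5 CPM in the group labelled control and 0.543, 0.768, 0.461, 0.356 and 0.239 CPM in the group labelled TAA control, a log2 difference of -5.50 (SE 0.33, adjusted p = 2.6e-06). Trpv4 had 51, 33, 25, 84 and 89 counts in the control group and 1, 3, 4, 7 and 3 counts in the TAA control group, a log2 difference of -3.78 (SE 0.59, adjusted p = 0.0005) and a ratio of the summed counts with a 95% interval of 9.32 to 25.7 for counting error only. These 2 groups did not overlap in either gene. Piezo2 had 6 to 23 counts in the TAA control group, and both genes passed the low-count filter only through the control group. Their adjusted p are therefore no firm measure of the differences. The control group also had the higher stellate cell and fibroblast sum, 2138 to 5342 CPM against 346 to 541 CPM, and 0 of the 11 markers were higher and 9 lower in the TAA control group. Of the 9 lymphatic and vascular genes 2 were higher and 6 lower in the TAA control group. Ccl21 lay at 452 to 2481 CPM in the control and 1.97 to 5.49 CPM in the TAA control group, and Prox1 at 37.7 to 74.5 CPM and 9.72 to 16.9 CPM. The 2 that were higher, Efnb2 and Rspo3, had medians of 357 and 13.5 CPM in the control and 515 and 35.2 CPM in the TAA control group. All 5 cholangiocyte markers tested were lower in the TAA control group (7 genes summed to 4.83 to 12.5 CPM in the control and 1.34 to 2.66 CPM in the TAA control group). Hepatocyte markers differed as well, with 7 of 10 lower and 0 higher in the TAA control group. Their sums were 2333 to 5798 CPM in the control and 682 to 1525 CPM in the TAA control group. Of 11 LSEC, 10 macrophage and Kupffer cell and 5 lymphocyte markers tested, 4, 1 and 3 were higher and 0 lower in the TAA control group. The part of all these cells in the differences of Piezo2 and Trpv4 was not tested.

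Wwtr1 had 80.7, 87.9, 89.5, 83.5 and 102 CPM in the control group and 61.3, 61.0, 54.8, 54.2 and 50.3 CPM in the TAA control group (log2 difference -0.65, adjusted p = 0.000137). Ankrd1 had 5.43, 7.71, 8.71, 2.61 and 4.92 CPM in the first and 11.4, 12.1, 13.2, 13.4 and 12.5 CPM in the second (log2 difference 1.21, adjusted p = 0.00194). Wwtr1 and Ankrd1 thus differed in opposite directions here, whereas both were higher in acute injury and fibrosis after CCl4. Piezo1, Pkd1, Yap1 and Amotl2 also passed the adjusted p (0.00242, 0.000889, 0.0139 and 0.000595) without reaching 1.5-fold, with log2 differences of -0.43, -0.50, -0.35 and 0.58. Amotl2 passed the fold threshold with upper-quartile scaling (0.61) and without control replicate 2 or 3 or TAA control replicate 12, 13 or 15 (0.59 to 0.63). Pkd2 and Lats2 differed by 0.01 (95% interval -0.15 to 0.18) and -0.09 (-0.27 to 0.09). Replicates 14 and 15 of the TAA control group resembled each other more than any other pair of one group, with a chi-square per degree of freedom of 2.96 over genes against at least 23.6 elsewhere. A value of 1 would be sampling noise alone, so both were kept as separate libraries, but whether they come from 2 rats was not tested. Without replicate 14 the count of genes called was 4, and without replicate 15 it was 5.

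**Figure D4:**
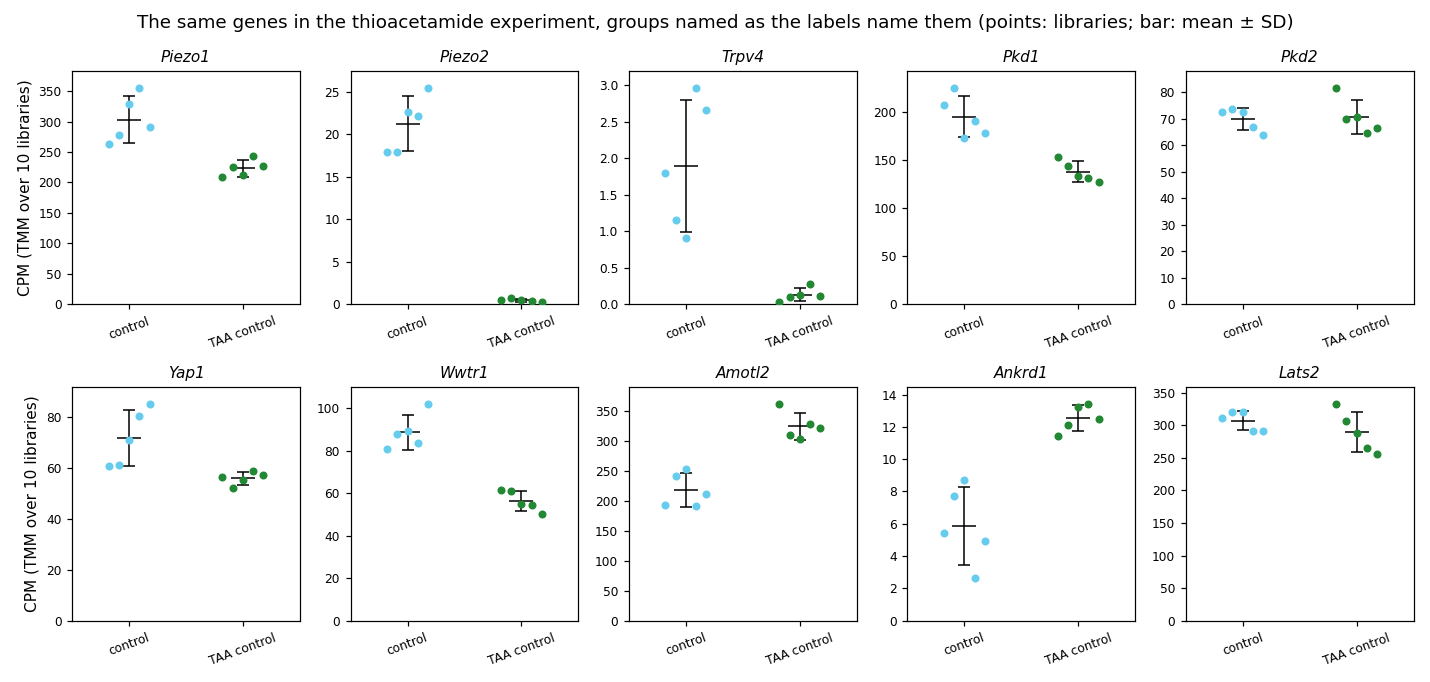
Level of each of the 10 genes in CPM (linear axis from 0, TMM scaling over these 10 libraries) in the 5 libraries labelled control and the 5 labelled TAA control, with mean ± SD. Piezo2 and Trpv4 are near 0 in all 5 TAA control libraries, and Ankrd1 and Amotl2 are the only genes of which every TAA control library lies above every control library.

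Around the 10 genes, 4 lists of related genes were read in the same fits, with the 10 genes counted in the lists they belong to. Of 18 mechanosensitive channels and receptors tested, 4 were higher and 10 lower in acute injury, 5 and 10 in fibrosis, and of 19 in cirrhosis 6 were higher and 8 lower. The share called was 77.8%, 83.3% and 73.7%, against 73.4%, 70.2% and 51.8% of all genes, and the median log2 fold-changes were -0.85, -0.72 and 0.30. Trpm7, a channel fused to a kinase, rose from 26.1 ± 18.2 CPM in healthy (SD, n = 6) to 128 ± 21.98 CPM in acute LSECs (SD, n = 5), and Itgb1, the integrin subunit that ties cells to collagen and fibronectin, from 473 ± 162 to 1862 ± 383 CPM. Both were also higher in cirrhosis, with log2 fold-changes of 1.44 (adjusted p = 0.0117) and 1.12 (adjusted p = 0.00073). Plxnd1, a semaphorin receptor that also senses flow in endothelium, fell from 2470 ± 484 to 145 ± 38.7 CPM in acute injury and to 1000 ± 73.2 CPM in cirrhosis (log2 fold-changes of -4.07 and -1.28). Kcnj2 rose at all 3 stages (log2 fold-changes of 2.12, 2.31 and 0.92), and Tmem63c and Tmem63a, of a family of stretch-gated channels, fell at all 3. Panx1, an ATP-releasing channel, fell by 2.20 on the log2 scale in acute injury and had -0.24 in cirrhosis (adjusted p = 0.413).

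Among 28 Hippo kinases and YAP or TAZ binding proteins, 14 were higher and 8 lower in acute injury, 13 and 7 in fibrosis, and 9 and 5 in cirrhosis, with medians of 0.64, 0.57 and 0.23. The share called was 78.6%, 71.4% and 50%, near that of all genes at each stage. Kinases upstream of YAP, and Mob1b, whose product is not a kinase, were among those that rose. Map4k4 rose from 119 ± 51.6 to 841 ± 78.9 CPM in acute injury, and Taok1, Mob1b and Lats1 rose at all 3 stages, Lats1 by log2 fold-changes of 1.82, 1.85 and 1.10 where Lats2 was not called. Taok3 fell in acute injury and fibrosis, and Rassf1 and the atypical cadherin Dchs1 fell at all 3 stages (Dchs1 by 1.66 on the log2 scale in cirrhosis, adjusted p = 9.33e-05). Frmd6, an upstream scaffold of the pathway, rose at all 3 stages (0.98, 2.02 and 2.04). Ajuba, a LATS inhibitor, rose in acute injury (1.503, adjusted p = 0.000383) and fell in cirrhosis (-1.02, adjusted p = 0.0131), while its relative Wtip fell at all 3 stages.

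Of the co-activators, TEAD factors and their cofactors, 3 of 7 were higher and 2 lower in acute injury, 4 and 2 of 8 in fibrosis, and 2 and 1 of 7 in cirrhosis (medians 0.12, 1.09 and 0.40). The share called was 71.4%, 75% and 42.9%, against 73.4%, 70.2% and 51.8% of all genes. Tead3 rose from 8.04 ± 2.05 to 26.3 ± 2.995 CPM in acute injury and 28.1 ± 2.23 CPM in fibrosis, and was at 10.4 ± 1.27 CPM in cirrhosis (log2 fold-change 0.43, adjusted p = 0.0684). Tead4 and the TEAD repressor Vgll4 fell at the 2 early stages (Vgll4 by 1.74 and 1.33 on the log2 scale) and were not called in cirrhosis.

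Of 21 target genes of YAP and TAZ tested, 10 were higher and 7 lower in acute injury, 10 and 6 in fibrosis, and 10 and 3 in cirrhosis, with medians of 0.83, 0.71 and 0.67. The share called was 81%, 76.2% and 61.9%, against 73.4%, 70.2% and 51.8% of all genes, which were also called in both directions. Ctgf, a matricellular growth factor, rose from 32.5 ± 9.20 to 395 ± 174 CPM in acute injury and 373 ± 124 CPM in fibrosis, and was at 28.9 ± 8.23 CPM in cirrhosis (log2 fold-change -0.16, adjusted p = 0.559). Cyr61, its close relative, had -0.59 in acute injury (adjusted p = 0.0532) and fell in fibrosis (-0.82) and cirrhosis (-1.21, adjusted p = 0.000846). Nt5e, Myof, Gadd45a and Tgfb2 rose at all 3 stages, and Nuak2 fell at all 3. Igfbp3 changed direction, with 106 ± 37.2 CPM in healthy, 4.30 ± 2.02 CPM in acute and 303 ± 145 CPM in cirrhotic LSECs. Ccdc80 fell in acute injury (-4.46) and fibrosis (-4.25) and had -0.05 in cirrhosis (adjusted p = 0.848). 

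**Figure D5:**
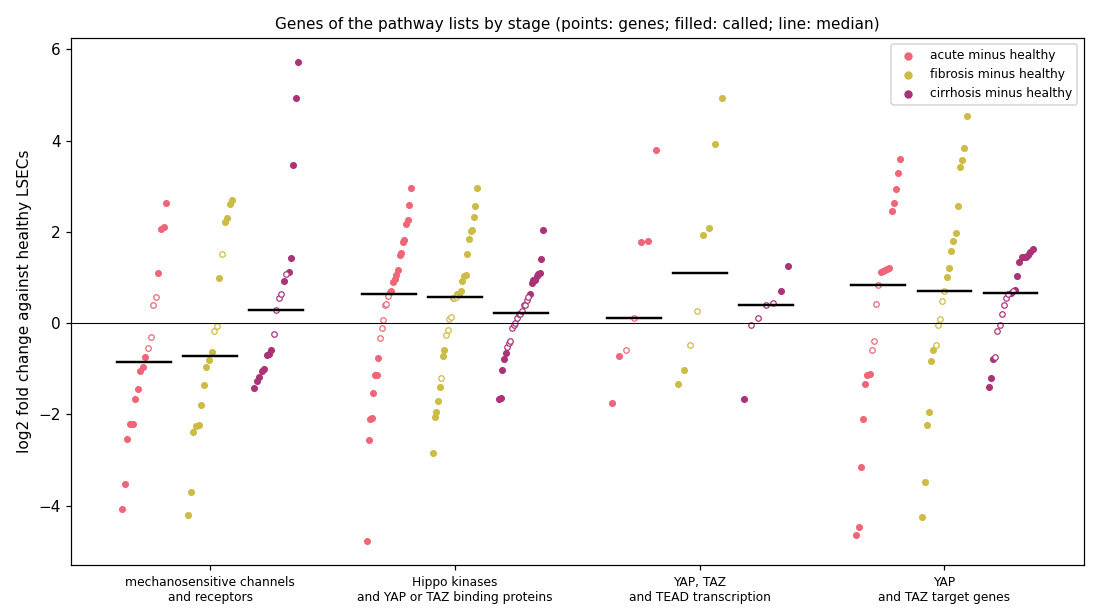
Log2 fold-change against healthy LSECs of every gene tested in the 4 lists, at each stage, with filled points for genes called, open points for genes not called and a line at the median of each list. Genes of every list lie on both sides of 0 at all 3 stages, and the median of the target genes is 0.83, 0.71 and 0.67 in acute injury, fibrosis and cirrhosis.

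The same lists were read in the TAA experiment, as TAA control against control, where 27.6% of all genes were called. The channels and receptors had 0 higher and 7 lower of 19, the Hippo list 2 and 5 of 28, the TEAD list 0 and 3 of 7, and the target genes 3 and 9 of 21, which are shares of 36.8%, 25%, 42.9% and 57.1%. Igfbp3 was at 388 ± 184 CPM in the control and 57.9 ± 17.3 CPM in the TAA control group, Frmd6 at 66.1 ± 8.73 and 14.1 ± 4.91 CPM, and Cyr61 at 292 ± 99.4 and 974 ± 245 CPM.

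The genes whose level over the 22 CCl4 libraries was most like that of a member were read as a description, since the libraries share 4 stages and 1 scaling. For Piezo1 they were Ptpn23 (Pearson's r 0.952), Rexo1 (0.952) and Rnh1 (0.941) among 8369 genes. For Yap1 they were Rbfox2 (0.887), Srgap1 (0.846) and Zdhhc5 (0.840), and for Ankrd1 Hnrnpdl (0.833), Plekhg1 (0.827) and Tsc22d2 (0.825).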

How the data were processed

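RNA of rat LSECs was sequenced in 32 poly(A) libraries, 22 of the CCl4 and 10 of the TAA experiment. The authors aligned to the Rnor_6.0 assembly (STAR) and deposited RSEM expected counts per gene, which are not normalized. Per the labels' processing notes, FastQC, Trim Galore and limma were also used, with versions not given in the sources used here. Expected counts divide reads shared between similar genes by estimate.

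Expected counts were rounded and filtered with filterByExpr, and the 2 groups of each comparison were fitted with limma-voom and TMM factors (R 4.3.3, limma 3.58.1, edgeR 4.0.16). The study's thresholds use unadjusted p-values; here genes were called at a Benjamini-Hochberg adjusted p-value under 0.05 over all genes tested and a fold-change above 1.5, and DESeq2 1.42.0 and edgeR's quasi-likelihood test were alternatives. CPM used TMM factors over the 22 CCl4 or the 10 TAA libraries, and a pseudocount of 0.5 on the log2 scale. Summed counts of Trpv4 were compared with exact 95% conditional binomial intervals. The code was tested on simulated data. For the plots, matplotlib 3.10.9 was used under Python 3.11.15.

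Groups and replicate numbers come from the labels, which do not say how libraries were divided over preparation days, so p-values measure the spread between these libraries. Replicate numbers are shared between groups of different rats. Deviations of same-numbered libraries from their group means correlated by -0.234 to 0.289, so the numbers were not taken as pairs. The 10 genes and the lists were chosen with earlier results of these data known. Named list genes are, for acute injury and cirrhosis against healthy LSECs, up to 3 largest rises and 3 largest falls per list among called genes other than the 10 with a mean log2 CPM of at least 3. Genes most like a member were ranked by Pearson's r for Piezo1, Yap1 and Ankrd1. Totals per library ranged from 25646531 to 46464289 counts. Genes with under about 20 counts, such as Trpv4 in healthy, acute, fibrosis and TAA control libraries, are limited by counting error. Piezo2 was in a similar range, with 3 to 52 counts in healthy, 7 to 32 in acute and 6 to 23 in TAA control libraries. Rat gene positions in Rnor_6.0 were not used here. One further list of genes is not reported here.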

Additional observations from a re-analysis of the deposited data

Results flagged for a closer look

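Among 60 sets of libraries examined (10 genes in 6 groups), 3 had 1 library far from the others on the log2 scale, and chance gives about 3. Piezo1 was at 213 CPM in cirrhosis replicate 2, against 259 to 283 CPM in the other cirrhotic libraries. Yap1 was at 46.3 CPM in the same library, against 63.6 to 73.2 CPM. Pkd1 was at 497 CPM in healthy replicate 3, against 197 to 270 CPM in the other healthy libraries.

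In 12 cases the change against healthy LSECs differed between stages by the test of the stages against each other. These were 5 of 10 genes between acute injury and cirrhosis (69.3% of all genes tested) and 6 of 10 between fibrosis and cirrhosis (63.8%). Between acute injury and fibrosis 1 of 9 was called (11% of all genes). The shares were near or below those of all genes, so the count is no result about the pathway. From acute injury to cirrhosis the log2 difference was -0.67 for Piezo1, 4.42 for Piezo2, 5.70 for Trpv4, -1.06 for Wwtr1 and 1.35 for Amotl2. From fibrosis to cirrhosis it was -0.88 for Piezo1, 2.30 for Piezo2, 5.31 for Trpv4, -1.34 for Wwtr1, 1.24 for Amotl2 and -1.36 for Ankrd1. From acute injury to fibrosis it was 2.19 for Piezo2.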

How the results depend on the processing

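Of 1424 values of single genes under the alternatives, 1367 stayed on their side of the thresholds, 33 newly passed, 24 no longer passed and 0 called values changed sign. Apart from leaving out single libraries, counts of called members moved by more than 1.5 times in 5 cases. Between fibrosis and acute injury 2 were called with DESeq2 and 0 in a single fit over the 4 CCl4 groups, in place of 1 (limma-voom, 1 with unadjusted p-values and with edgeR). Over all genes these 2 settings called 1672 of 13931 and 746 of 15578, against 1529 of 13931 in the main fit. Without the fold threshold 8 were called in place of 5 between cirrhosis and acute injury, and 8 in place of 4 in the TAA experiment. Over all genes 12104 of 15005 were then called in place of 10399, and 7139 of 14376 in place of 3970. Against healthy replicates 3 and 5 only, an alternative chosen after seeing the data, 4 were called in fibrosis in place of 7, with fewer libraries in the fit. In acute injury 5 were called, where Trpv4 could not be tested, and 4 in cirrhosis, where Trpv4 (3.54, adjusted p = 0.0602) and Wwtr1 no longer passed. Over all genes that alternative called 9755 of 14951 in fibrosis, 9884 of 14700 in acute injury and 6417 of 15598 in cirrhosis. With 1 library left out at a time, members called ranged from 4 to 6 in acute injury, 5 to 7 in fibrosis and 5 to 7 in cirrhosis against healthy LSECs, 1 to 2 between fibrosis and acute injury (2 without fibrosis replicate 17), 6 to 6 between cirrhosis and fibrosis, 4 to 6 between cirrhosis and acute injury, and 4 to 5 in the TAA experiment. With replicate number as a block the counts were 8 in acute injury (Piezo1 at -0.68 and Lats2 at 0.63 were added), 6 in cirrhosis and 4 between cirrhosis and acute injury. Over all genes the block called 10924 of 14317, 7275 of 14789 and 10180 of 15005. Same-numbered libraries did not deviate together, so this pairing was not used. Library size alone as scaling moved the median log2 fold-change of all genes against healthy LSECs to 0.32, 0.37 and 0.42 in acute injury, fibrosis and cirrhosis.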
